A study of Homo sapiens with 6 samples.

Results

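The IGF2BP, LIN28B and IGF axis described here comprised 10 genes, chosen by their symbols as genes that have been linked to HMGA2 through the let-7 microRNAs, PLAG1 and IGF2BP2. They were the RNA-binding proteins IGF2BP1, IGF2BP2, IGF2BP3 and LIN28B, the zinc finger factors PLAG1 and PLAGL2, the ligand IGF2 and the receptors IGF1R, IGF2R and INSR. All 10 were found among the 61806 genes of the deposited table. IGF2BP1 and LIN28B were at or near 0 in every library, and the other 8 passed the filter on low counts, as did 16110 genes in all.

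RNA was sequenced from MDA-MB-231, a human triple-negative breast cancer (TNBC) cell line, in 6 libraries. There were 2 libraries each of a control line carrying a control vector (shNC), of a line carrying the hairpin shHMGA2-1 and of a line carrying shHMGA2-2. The hairpins target HMGA2, an architectural chromatin protein found mainly in the fetus and in tumors, and according to the study's methods they were delivered by lentivirus with puromycin selection, after which stable knockdown lines were expanded from single clones. Each knockdown group is therefore 1 cell line, in which the effect of its hairpin cannot be told apart from that of its clone. Whether shNC was also cloned is not given, the names given to its libraries read WT, and those of the shHMGA2-1 libraries carry SH2. No source states that the libraries of a line came from separate cultures, so the p-values measure only the spread between these libraries, which may be technical.

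During fetal life HMGA2, LIN28B and the IGF2BP proteins are abundant, and the let-7 microRNAs, which accumulate as tissues mature, repress many of them through sites in their 3′ UTRs. LIN28B in turn blocks the maturation of let-7, and the IGF2BP proteins bind, transport and stabilize other mRNAs, among them that of IGF2. PLAG1 activates the IGF2 promoters, IGF2 signals through IGF1R and INSR, and IGF2R carries it to lysosomes for degradation.

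The sequences below show the seed of let-7 and matches to it in the 3′ UTRs of HMGA2 and several axis genes. All 9 mature let-7 family sequences examined, taken from RefSeq on GRCh38.p14, had the same seed, which is bases 2 to 8 and stands in capitals. MicroRNAs themselves were not measured in these libraries, which were made by mRNA capture. hsa-let-7a-5p is encoded at 3 loci (chr9:94175962-94175983 on the plus strand, chr11:122146568-122146589 on the minus strand and chr22:46112752-46112773 on the plus strand), hsa-let-7g-5p at chr3:52268336-52268357 on the minus strand and hsa-miR-98-5p at chrX:53556299-53556320 on the minus strand.
hsa-let-7a-5p: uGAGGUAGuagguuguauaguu
hsa-let-7g-5p: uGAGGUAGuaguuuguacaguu
hsa-miR-98-5p: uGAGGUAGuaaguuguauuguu

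The 7 letters complementary to this seed, CTACCTC, were searched on the sense strand of the 3′ UTR of each gene's principal transcript in GENCODE version 29 (GRCh38). Of 18930 genes with a 3′ UTR, 8.59% held such a match. The first site followed by an A is given for each gene that had one, with the seed match in capitals. They lie in the 3′ UTR of HMGA2 (chr12:65963298-65963320, plus strand), IGF2BP1 (chr17:49051061-49051083, plus), IGF2BP2 (chr3:185644220-185644242, minus), IGF2BP3 (chr7:23311795-23311817, minus), LIN28B (chr6:105078812-105078834, plus) and IGF1R (chr15:98960046-98960068, plus).
HMGA2: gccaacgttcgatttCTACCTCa
IGF2BP1: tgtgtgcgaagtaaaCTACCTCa
IGF2BP2: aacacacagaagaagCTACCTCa
IGF2BP3: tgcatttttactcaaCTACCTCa
LIN28B: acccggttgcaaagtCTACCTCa
IGF1R: cccccaaacatttatCTACCTCa

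The genes differed in how many matches they held. IGF2BP1, LIN28B and HMGA2 had 4 each, in 3′ UTRs of 6206, 4549 and 3003 bases. Among genes with a 3′ UTR of 0.8 to 1.25 times the same length, 0.556%, 0.233% and 0.0994% had at least as many. IGF1R had 2 matches, and 6.80% of genes of like length had at least as many. IGF2BP2, IGF2BP3, PLAGL2 and IGF2R had 1 match each, and 11.7%, 12.0%, 20.6% and 31.2% of genes of like length had at least 1. In PLAG1, IGF2 and INSR the letters were not in the 3′ UTR examined. The 429-base 3′ UTR of the principal INSR transcript is short, and a longer INSR transcript with a 3′ UTR of 4801 bases held 1 match. The HMGA2 transcript with the longest 3′ UTR, an isoform of 7421 bases, held 0. A match is a description of sequence and not evidence of binding.

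The libraries held 16461178 to 17167293 counts, of which mitochondrial genes took 6.74% to 7.86%. The cell identity markers VIM, CD44, KRT18, KRT8, AXL and EGFR were detected throughout, with VIM at 35046 to 38106 counts. Of these 6, 1 rose and 3 fell in shHMGA2-1, and 2 rose and 3 fell in shHMGA2-2, where KRT8 and EGFR changed at least 2-fold. EGFR fell in both knockdown lines (log2 fold changes of -0.75 and -1.54), as did AXL (-0.42 and -0.94), while CD44 rose in both (0.25 and 0.41) and KRT8 rose in shHMGA2-2 (1.25). Of 5 markers listed as low in this cell line, ESR1 had 2 to 12 counts and PGR and CDH1 at most 4, but ERBB2 had 1126 to 1909 and EPCAM 127 to 302. ERBB2 rose in both lines (0.46 and 0.45), and EPCAM rose in shHMGA2-1 (0.9986). Of 5 leukocyte markers 4 had at most 3 counts in any library. Of 5 stromal markers 3 had at most 3 counts in any library, and the list summed to 74 to 112 counts in shNC, 193 to 247 in shHMGA2-1 and 144 to 147 in shHMGA2-2. COL1A1 rose in shHMGA2-1 (1.60), where PDGFRB fell (-1.57), and PDGFRB rose in shHMGA2-2 (1.10). The part of these differences in the results below was not tested.

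HMGA2, the target of the hairpins, was reduced in both knockdown lines. It had 2126 and 2161 counts in shNC, against 858 and 989 in shHMGA2-1 and 435 and 482 in shHMGA2-2. The 3 lines did not overlap. The log2 fold change against shNC was -1.29 ± 0.087 (SE) in shHMGA2-1 and -2.31 ± 0.093 in shHMGA2-2 (adjusted p = 2.2e-11 and 2.1e-16, quasi-likelihood test of edgeR, adjusted by Benjamini-Hochberg for 16110 genes, as throughout). HMGA2 was lower in shHMGA2-2 than in shHMGA2-1 by 1.01 on the log2 scale, so the lines differ in the depth of the knockdown as well as in hairpin and clone.

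Against shNC, 7 of the 8 tested axis genes passed an adjusted p of 0.05 in shHMGA2-1, where 33.4% of all genes did, and 6 in shHMGA2-2, where 58.7% did. In shHMGA2-1, 3 were higher (background 15.8%) and 4 lower (17.6%). In shHMGA2-2, 2 were higher (29.5%) and 4 lower (29.2%). A change of at least 2-fold with the same threshold was met by 1 of the 8 genes in shHMGA2-1 (IGF2) and by 3 in shHMGA2-2 (IGF2BP2, IGF2 and INSR), beside 8.49% and 21.3% of all genes. IGF2 had 0 counts in shNC and passed the filter on low counts only through shHMGA2-2. Its direction against shNC was thus fixed in advance, and its place in these counts is no independent result. The median log2 fold change of the 8 was -0.25 in shHMGA2-1 and -0.12 in shHMGA2-2, beside 0.010 and 0.028 over all genes. These comparisons share the shNC libraries.

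**Figure D1:**
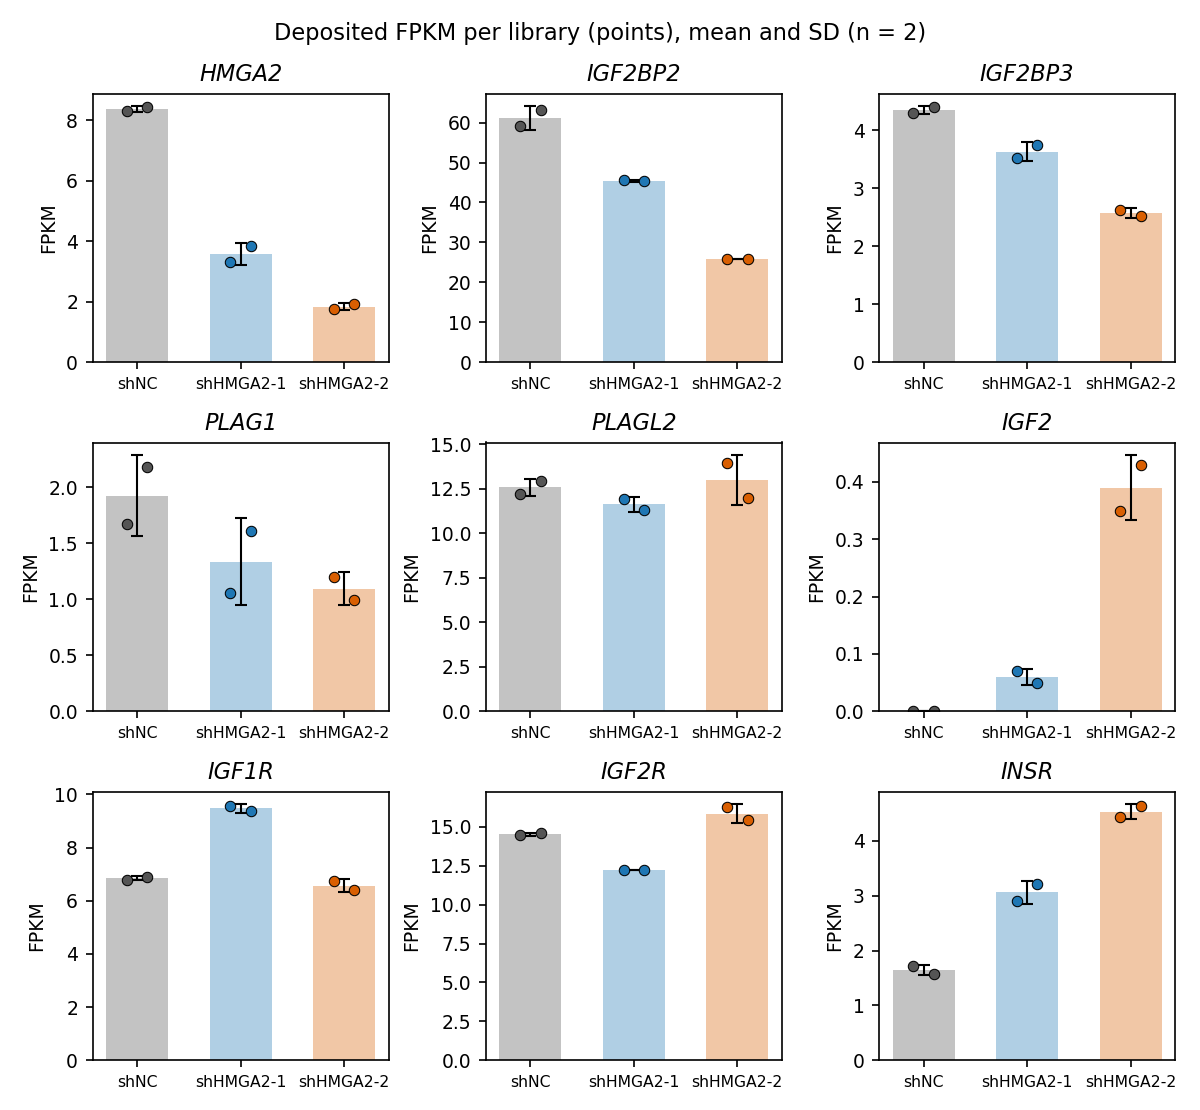
FPKM in each of the 6 libraries (points) for HMGA2 and the 8 axis genes that passed the filter, with the mean as a bar and the SD as an error bar (n = 2 per line); each panel has its own y axis starting at 0. HMGA2, IGF2BP2 and IGF2BP3 step down and INSR steps up from shNC to shHMGA2-1 to shHMGA2-2, while IGF1R is highest and IGF2R lowest in shHMGA2-1.

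IGF2BP2 was the main IGF2BP transcript of these cells and fell in both knockdown lines. This RNA-binding protein, which also reads N6-methyladenosine (m6A) marks, is encoded by a gene on the minus strand of chr3:185643130-185825042 (ENSG00000073792). It had 5341 and 5722 counts in shNC, against 4170 and 4131 in shHMGA2-1 and 2262 and 2292 in shHMGA2-2. The libraries of each line lay close together and the lines did not overlap. On the FPKM scale, which divides by exon length so that genes can be set side by side, its level was 61.1 ± 2.96 (SD, n = 2) in shNC, 45.4 ± 0.219 in shHMGA2-1 and 25.9 ± 0.0990 in shHMGA2-2. The log2 fold change was -0.49 ± 0.064 (SE) in shHMGA2-1 (adjusted p = 1.5e-06, edgeR) and -1.36 ± 0.066 in shHMGA2-2 (adjusted p = 8.1e-15). The lines differed from each other by -0.87 ± 0.066 (adjusted p = 6.8e-11).

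IGF2BP3, a paralog with the same arrangement of RNA-binding domains that is largely fetal and re-expressed in carcinomas, followed in smaller steps. Its gene lies on the minus strand of chr7:23310209-23470491 (ENSG00000136231). The counts were 623 and 636 in shNC, against 515 and 547 in shHMGA2-1 and 369 and 356 in shHMGA2-2, again without overlap between lines. The fall reached -0.88 ± 0.10 (SE) in shHMGA2-2 (adjusted p = 8.2e-08, edgeR) and -0.32 ± 0.099 in shHMGA2-1 (adjusted p = 0.013). The smaller of these did not pass with DESeq2 (adjusted p = 0.053), with limma (0.10), or without shHMGA2-1 replicate 1 (0.054), shNC replicate 1 (0.075) or shNC replicate 2 (0.12). Of the exonic bases of IGF2BP3, 17.9% overlap MALSU1 on the opposite strand, and MALSU1 itself had 324 to 628 counts, highest in shHMGA2-2. The strand setting of the counting is not given, so reads of these bases cannot be assigned to either gene.

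IGF2BP1, the third paralog (chr17:48997385-49056145, plus strand), was counted 2 and 0 times in shNC, 0 and 1 times in shHMGA2-1, and 0 times in both shHMGA2-2 libraries. LIN28B (chr6:104936616-105083332, plus strand) had 0 counts in all 6 libraries, and its paralog LIN28A had at most 1. A count of 0 allows up to 3 counts, or 0.175 to 0.182 CPM in these libraries, so no difference between lines was detectable for either gene at this depth. IGF2BP1 and LIN28B were the axis genes with the most let-7 seed matches. HMGA2, which also held 4, had 2126 and 2161 counts in shNC. A link between matches and level was not tested.

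Within the IGF2BP family the composition moved little although the total fell. IGF2BP2 made up 93.2% and 93.5% of the summed FPKM of the 3 paralogs in shNC, against 92.8% and 92.4% in shHMGA2-1 and 90.8% and 91.2% in shHMGA2-2. The sum itself was 63.3 and 67.6 FPKM in shNC, against 49.1 and 49.0 in shHMGA2-1 and 28.4 in both libraries of shHMGA2-2. The ratio of IGF2BP2 to IGF2BP3 was 13.7 and 14.4 in shNC, against 12.97 and 12.1 in shHMGA2-1 and 9.82 and 10.3 in shHMGA2-2, so the lines stood in the same order without overlap. These shares are a description and were not tested.

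**Figure D2:**
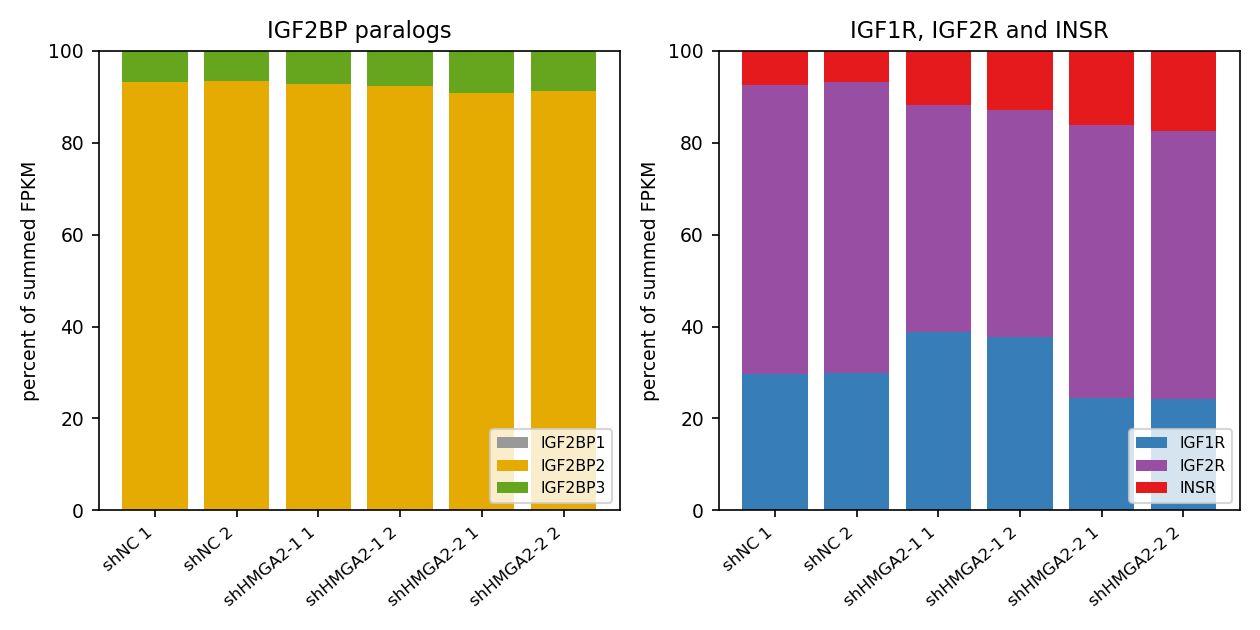
Share of the summed FPKM, in percent, taken by each IGF2BP paralog (left) and by IGF1R, IGF2R and INSR (right) in each of the 6 libraries, named by line and replicate. IGF2BP2 takes 90.8% to 93.5% throughout, and INSR goes from 7.46% and 6.86% in shNC to 16.2% and 17.5% in shHMGA2-2.

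PLAG1, a zinc finger activator of the IGF2 promoters (ENSG00000181690), was low and varied between the libraries of a line. It had 222 and 290 counts in shNC, against 143 and 216 in shHMGA2-1 and 155 and 128 in shHMGA2-2. Both knockdown lines lay below shNC after scaling, and they overlapped each other. The log2 fold change was -0.93 ± 0.18 (SE) in shHMGA2-2 (adjusted p = 9.8e-05, edgeR) and -0.59 ± 0.18 in shHMGA2-1 (adjusted p = 0.011). In shHMGA2-1 the call rested on single libraries: it was -0.31 (adjusted p = 0.19) without shHMGA2-1 replicate 1 and -0.38 (0.24) without shNC replicate 2, and DESeq2 gave 0.070. Between the knockdown lines the difference was -0.35 (95% confidence interval -0.73 to 0.043, adjusted p = 0.13), and leaving out shHMGA2-1 replicate 1 made it -0.63 (adjusted p = 0.0051).

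PLAGL2, a related zinc finger factor (chr20:32192504-32207743, minus strand), passed the test in no comparison. The counts were 1174 and 1240 in shNC, against 1158 and 1097 in shHMGA2-1 and 1301 and 1126 in shHMGA2-2, with shHMGA2-2 spanning the range of shNC. The difference from shNC was -0.18 in shHMGA2-1 (95% confidence interval -0.36 to 0.0055, adjusted p = 0.13) and -0.07 in shHMGA2-2 (-0.25 to 0.11, adjusted p = 0.51). At 12.6 FPKM in shNC, PLAGL2 was more abundant than PLAG1 at 1.93 FPKM.

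IGF2, the fetal growth factor whose gene is imprinted (chr11:2129112-2158391, minus strand), was counted only in the knockdown lines and at a low level. Counts were 0 in both shNC libraries, 8 and 6 for shHMGA2-1, and 41 and 51 for shHMGA2-2. The lines did not overlap. Against the limit of 3 counts per library, IGF2 was at least 2.21-fold higher in shHMGA2-1 (adjusted p = 0.0030, edgeR) and at least 14.5-fold higher in shHMGA2-2 (adjusted p = 7.0e-08). These folds take the mean of the knockdown line as counted, which for shHMGA2-1 rests on 8 and 6 counts. IGF2 passed the filter on low counts only through shHMGA2-2, so its direction against shNC was fixed in advance. On the log2(FPKM + 1) scale limma gave 0.08 in shHMGA2-1 (adjusted p = 0.26). In shHMGA2-2 IGF2 exceeded shHMGA2-1 by 2.69 ± 0.46 on the log2 scale (adjusted p = 3.5e-05). Even there it stood at 0.35 and 0.43 FPKM.

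Gene models on the same strand share 73.7% of the exonic bases of IGF2, among them the read-through gene INS-IGF2 and ENSG00000284779, a second model of IGF2 without a symbol in the table. Both had 0 counts in all 6 libraries. AC132217.1 also shares exonic bases with IGF2, and its counts were not looked at here. How reads falling in shared exons were treated is not given, so the level of IGF2 may be understated, which was not tested. Of the neighboring genes, H19, an imprinted noncoding RNA, had 0 to 6 counts and the antisense gene IGF2-AS had 0 to 3. IGF1 and INS, the other ligands of these receptors, had at most 2 counts and 0.

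INSR, the insulin receptor, which in one of its splice forms also binds IGF2, rose in both knockdown lines (chr19:7112255-7294414, minus strand). It had 315 and 291 counts in shNC, against 542 and 596 in shHMGA2-1 and 792 and 832 in shHMGA2-2. The 3 lines did not overlap. The log2 fold change was 0.83 ± 0.11 (SE) in shHMGA2-1 (adjusted p = 1.2e-06, edgeR) and 1.34 ± 0.10 in shHMGA2-2 (adjusted p = 6.1e-11), and the lines differed by 0.51 ± 0.098 (adjusted p = 0.00011). The deposited values are per gene, so the splice forms were not resolved.

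IGF1R, the type 1 IGF receptor tyrosine kinase (chr15:98648539-98964530, plus strand), rose in shHMGA2-1. It had 1608 and 1630 counts in shNC, against 2292 and 2235 in shHMGA2-1 and 1546 and 1480 in shHMGA2-2. The libraries of shHMGA2-1 were the highest, and those of shHMGA2-2 lay just below shNC. The log2 fold change was 0.40 ± 0.073 (SE) in shHMGA2-1 (adjusted p = 0.00012, edgeR) and -0.18 ± 0.074 in shHMGA2-2 (adjusted p = 0.044). The small fall in shHMGA2-2 was not called by DESeq2 (adjusted p = 0.064), with upper quartile scaling (-0.06, adjusted p = 0.48), or when either library of shHMGA2-2 or of shNC was left out (0.054 to 0.26). The direct difference between the knockdown lines was -0.58 ± 0.074 (adjusted p = 4.1e-07).

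IGF2R, the mannose 6-phosphate receptor that clears IGF2 (chr6:159969082-160113507, plus strand), fell in shHMGA2-1. The counts were 5555 and 5602 in shNC, against 4749 and 4727 in shHMGA2-1 and 6060 and 5789 in shHMGA2-2. shHMGA2-1 was the lowest line, and shHMGA2-2 overlapped shNC after scaling. The log2 fold change was -0.31 ± 0.063 (SE) in shHMGA2-1 (adjusted p = 0.00037, edgeR) and 0.01 in shHMGA2-2 (95% confidence interval -0.12 to 0.14, adjusted p = 0.93). Between the knockdown lines the difference was 0.32 ± 0.063 (adjusted p = 0.00014).

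**Figure D3:**
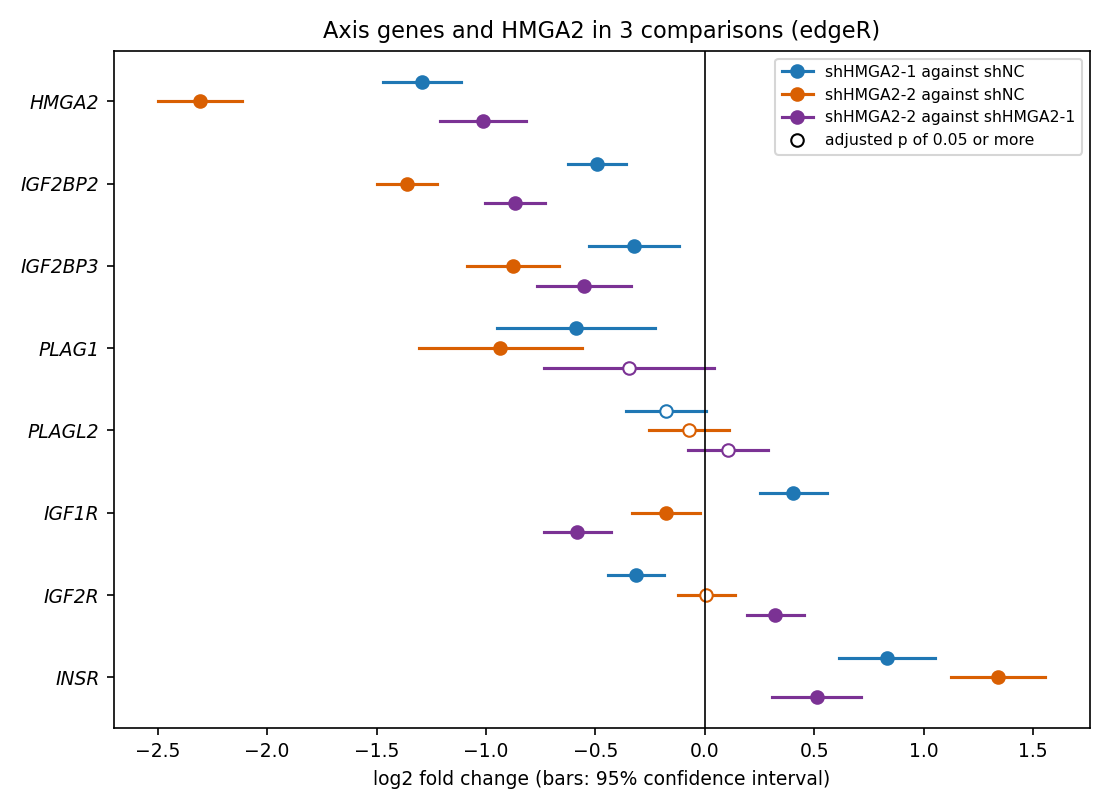
Log2 fold change (x axis) with its 95% confidence interval for HMGA2 and 7 axis genes in 3 comparisons; filled points passed an adjusted p of 0.05 and open points did not, and IGF2 is left out because its counts are 0 in shNC. IGF2BP2 and IGF2BP3 lie below 0 and INSR above 0 in both knockdown lines, while IGF1R and IGF2R take different values in the 2 lines.

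Among the receptors IGF2R had the highest level, and the share of INSR was larger in both knockdown lines than in shNC. INSR took 7.46% and 6.86% of the summed FPKM of IGF1R, IGF2R and INSR in shNC, against 11.8% and 12.97% in shHMGA2-1 and 16.2% and 17.5% in shHMGA2-2. The share of IGF1R was 29.6% and 29.9% in shNC, against 38.7% and 37.8% in shHMGA2-1 and 24.5% and 24.2% in shHMGA2-2. The ratio of IGF1R to INSR went from 3.97 and 4.35 in shNC to 3.29 and 2.91 in shHMGA2-1 and to 1.52 and 1.38 in shHMGA2-2.

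The order of the levels changed through INSR. By mean FPKM the order in shNC was IGF2BP2 (61.1), IGF2R (14.5), PLAGL2 (12.6), IGF1R (6.84), IGF2BP3 (4.35), PLAG1 (1.93) and INSR (1.65). PLAG1 and INSR overlapped in shNC, and the neighbors above them did not. INSR stood above PLAG1 in shHMGA2-1 (3.06 against 1.34 FPKM) and above IGF2BP3 as well in shHMGA2-2 (4.54 against 2.57 FPKM). The first 4 places were taken by the same genes in the same order in all 3 lines.

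With the 4 knockdown libraries taken as 1 group against shNC, 1 of the 8 genes passed, where 5.26% of all genes did (2.34% higher, 2.92% lower, and 3.09% with a 2-fold change). That gene was INSR, which was higher (log2 fold change 1.11, adjusted p = 0.037, edgeR). The INSR call did not pass without either shNC library (adjusted p = 0.27 and 0.32) or either shHMGA2-2 library (0.081 and 0.077), with the replicate block (0.11) or with limma on log2(FPKM + 1) (0.061). An unadjusted p under 0.05 was reached by 5 of the 8. The share of all genes at that threshold was not computed, and the 5.26% above is for the adjusted p. IGF2BP2 (-0.86, adjusted p = 0.14), IGF2BP3 (-0.57, 0.16), PLAG1 (-0.75, 0.14) and IGF2 (adjusted p = 0.11) did not pass with edgeR. DESeq2 called IGF2BP2 (adjusted p = 0.039) and IGF2 (0.0014) in addition to INSR. This fit counts the difference between the knockdown lines as spread: the biological coefficient of variation was 0.291 in it and 0.0583 in the model with 3 lines. Between shHMGA2-2 and shHMGA2-1, 6 of the 8 genes differed, where 50.2% of all genes did. Of these, 3 were higher (24.5% of all genes) and 3 lower (25.7%), and 1 of them, IGF2, differed at least 2-fold (15.1%). IGF2 had passed the filter only through shHMGA2-2, where it was high.

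The genes around the axis were taken as lists by function, some of which share members with it. IGF2, MEST and CCND2 passed the filter on low counts only through shHMGA2-2. Their calls as higher in that line were thus favored in advance. Values in parentheses are log2 fold changes against shNC, in shHMGA2-1 and then shHMGA2-2 where a pair is given, and counts of called genes stand beside 33.4% and 58.7% of all genes in these lines. Of the IGF ligands, receptors, binding proteins and their regulators, 13 of 19 were tested. In shHMGA2-1 5 were higher and 4 lower (median 0.14), and in shHMGA2-2 4 were higher and 6 lower (median -0.77), with 9 of these 10 at 2-fold or more (21.3% of all genes). IGFBP4 and IGFBP7 fell in both lines. IGFBP4, the most abundant binding protein here, had 12656 and 12029 counts in shNC, against 7737 and 6504 in shHMGA2-1 and 3646 and 3981 in shHMGA2-2 (log2 fold changes -0.87 and -1.78). IGFBP7, a secreted protein that binds IGFs weakly, had 1958 and 1810, 1289 and 1148, and 247 and 308 counts (-0.71 and -2.84). No library of a lower line reached a higher line for either gene.

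Other binding proteins took a different course in each line. IGFBP3, the main carrier of IGFs in serum, had 1875 and 1801 counts in shNC, against 3276 and 3154 in shHMGA2-1 and 683 and 668 in shHMGA2-2. It thus rose in shHMGA2-1 (0.73) and fell in shHMGA2-2 (-1.52). IGFBP1 fell in shHMGA2-2 (-1.16), where IGFBP6, which prefers IGF2, rose (1.64). In shHMGA2-1 they were at 0.14 and -0.20 and did not pass. IGFBP2 had at most 1 count and IGFBP5 at most 4. PAPPA2, a protease that cleaves IGFBP3 and IGFBP5, had 23 and 18, 50 and 45, and 2 and 1 counts (1.13 in shHMGA2-1 and -3.74 in shHMGA2-2). The rise in shHMGA2-1 did not pass without shNC replicate 2 (adjusted p = 0.12) or shHMGA2-1 replicate 1 (0.079), nor with DESeq2 (0.19). PAPPA, the protease of IGFBP4, was called in shHMGA2-1 (-2.17, with 3 to 18 counts over all libraries) and was at -1.11 (adjusted p = 0.087) in shHMGA2-2. The call in shHMGA2-1 did not pass without shNC replicate 2 (adjusted p = 0.052) or shHMGA2-1 replicate 2 (0.055), nor with DESeq2 (0.096) or limma (0.088 and 0.19). In shHMGA2-2 the value was -0.53 (adjusted p = 0.49) without shHMGA2-2 replicate 1 and -2.16 (0.031) without replicate 2. STC1, an inhibitor of these proteases, rose in shHMGA2-2 (1.74).

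**Figure D4:**
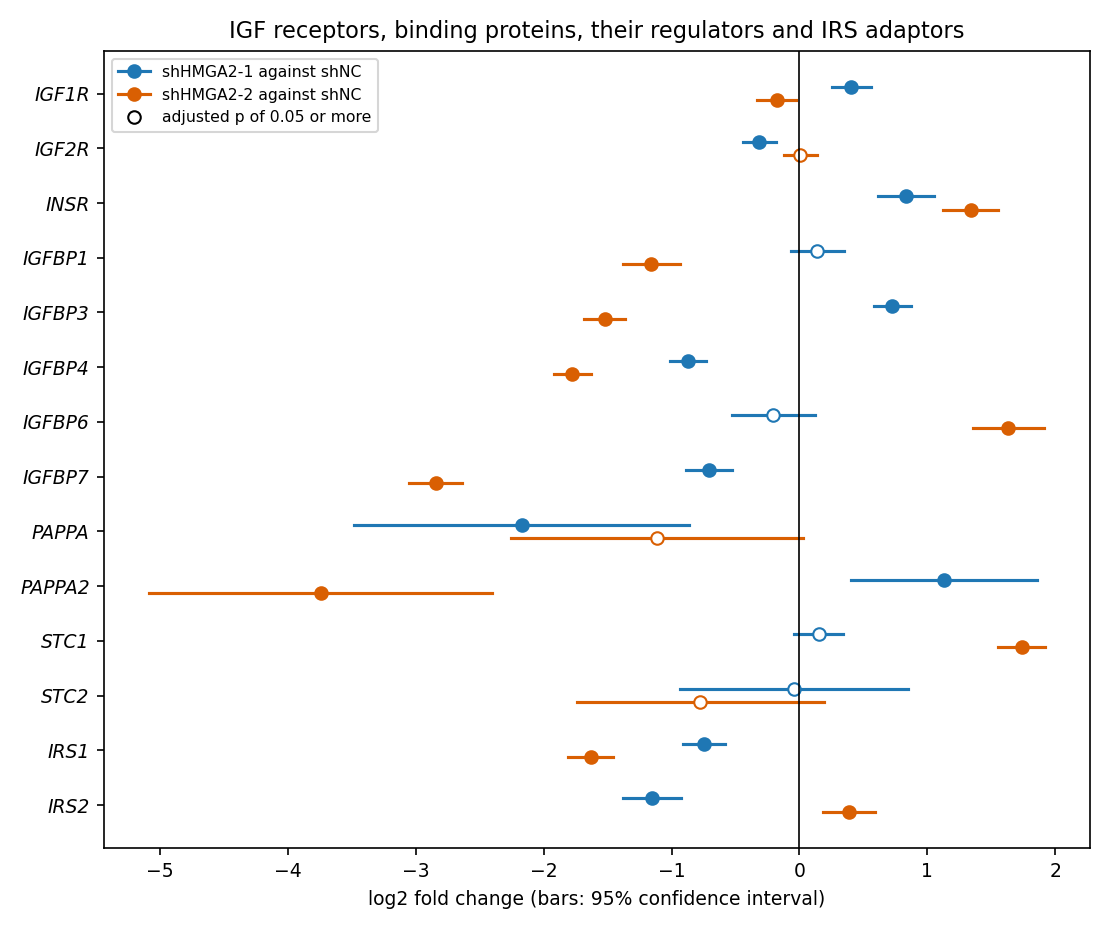
Log2 fold change against shNC (x axis) with its 95% confidence interval in shHMGA2-1 and shHMGA2-2 for the tested IGF receptors, binding proteins, their proteases and inhibitors, and the adaptors IRS1 and IRS2; filled points passed an adjusted p of 0.05, and IGF2 is left out because its counts are 0 in shNC. IGFBP4, IGFBP7 and IRS1 lie below 0 in both lines, and IGFBP3, PAPPA2 and IRS2 lie on opposite sides of 0.

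Downstream of the receptors, 26 of 27 listed genes of insulin and IGF signal transduction were tested. In shHMGA2-1, 0 rose and 10 fell (median -0.073), and in shHMGA2-2, 4 rose and 12 fell (median -0.19). IRS1, the adaptor that links IGF1R and INSR to PI3 kinase, had 1688 and 1661 counts in shNC, against 1075 and 1032 in shHMGA2-1 and 584 and 558 in shHMGA2-2 (-0.75 and -1.63). PIK3CA, the catalytic PI3 kinase subunit p110α, fell with it (-0.56 and -1.35). GRB14, an adaptor that inhibits the insulin receptor, had 56 and 26, 9 and 9, and 2 and 2 counts (-2.25 and -4.35). Without shNC replicate 1 these were -1.60 (adjusted p = 0.048) and -3.71. IRS2 fell in shHMGA2-1 (-1.15) and rose in shHMGA2-2 (0.39).

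Of the list of let-7 processing and LIN28 genes, 15 of 18 were tested. In shHMGA2-1 4 rose and 3 fell (median -0.050), and in shHMGA2-2 5 rose and 4 fell (median 0.16). MIR100HG, the host transcript of a cluster with let-7a-2, had 1082 and 1070 counts in shNC, against 533 and 600 in shHMGA2-1 and 656 and 691 in shHMGA2-2 (-1.003 and -0.76). MIR99AHG, which hosts let-7c, had 55 and 72, 55 and 50, and 6 and 2 counts (-0.35, adjusted p = 0.36, and -4.03). The latter was -5.003 without shHMGA2-2 replicate 1, and limma on log2(FPKM + 1) did not call it (adjusted p = 0.12). MIRLET7BHG, the host of let-7a-3 and let-7b, was at 0.60 in both lines and did not pass. TUT4, the terminal uridylyltransferase that LIN28A recruits to let-7 precursors, rose in shHMGA2-2 (0.82). AGO4, an Argonaute protein, rose in both lines (0.64 and 0.97). The 7 calls in shHMGA2-1 were 3 without shNC replicate 1 or shHMGA2-1 replicate 1 and 4 without shNC replicate 2. Host transcripts do not give the level of the mature microRNA.

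Of the 29 genes listed as let-7 targets, 23 were tested, and IGF2BP2, IGF2BP3, IGF1R and INSR are among them. So is HMGA2, the target of the hairpins, whose fall in both lines was set by the design and is included in the counts and medians. In shHMGA2-1 7 rose and 9 fell (median -0.084, or -0.023 with CCND2, which had at most 5 counts in these lines, set to 0), and in shHMGA2-2 12 rose and 9 fell (median 0.19). The 16 calls in shHMGA2-1 were 10 and 9 without shNC replicate 1 or 2. HMGA1, the paralog of HMGA2, had 20319 and 21184 counts in shNC, against 12283 and 10955 in shHMGA2-1 and 6228 and 6192 in shHMGA2-2 (-0.92 and -1.82). THBS1, a matrix glycoprotein, had 3072 and 3086, 1486 and 1353, and 12097 and 12310 counts (-1.20 and 1.91). CCND2, a D-type cyclin, had 0 and 5, 0 and 0, and 26 and 17 counts. Across all 1244 tested genes with a let-7 seed match in the principal 3′ UTR, the median log2 fold change was 0.0066 in shHMGA2-1 and -0.0059 in shHMGA2-2, beside 0 and 0.00084 over the 12594 tested genes with a 3′ UTR. For the 141 of them with at least 2 matches, whose 3′ UTRs were longer (median 5124 bases, beside 1110 over all), it was -0.014 and -0.12. Of these 141, 27.0% were called lower in shHMGA2-1 and 38.3% in shHMGA2-2, beside 20.8% and 33.3% of all genes with a 3′ UTR. Called higher were 19.9% of the 141 in shHMGA2-1 and 28.4% in shHMGA2-2, beside 17.7% and 31.3% of all. These classes are a description and were not tested.

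Of the PLAG family and imprinted or fetal growth genes, 7 of 15 were tested and 8 were too low. In shHMGA2-1 1 rose and 2 fell (median -0.18), and in shHMGA2-2 4 rose and 2 fell (median 0.53). MEST, an imprinted gene expressed in the embryo, had 1 and 0 counts in shNC, against 0 and 3 in shHMGA2-1 and 170 and 122 in shHMGA2-2, at least 46.2-fold higher there. CDKN1C, an imprinted cell cycle inhibitor in the same chromosomal region as IGF2, had 8 and 9, 15 and 18, and 36 and 29 counts, and rose in shHMGA2-2 (1.84, adjusted p = 0.0011). AFP, the fetal serum protein, had 15 and 20, 10 and 14, and 0 and 0 counts, so that it was at least 6.17-fold higher in shNC than in shHMGA2-2. PEG10, a further imprinted gene, fell in shHMGA2-1 (-0.83) and rose in shHMGA2-2 (0.53).

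Of the m6A writers, erasers and readers, 16 of 17 were tested. In shHMGA2-1 0 rose and 3 fell (median -0.016), and in shHMGA2-2 6 rose and 5 fell (median -0.14). IGF2BP2 and IGF2BP3 are 2 of those that fell in each line, and IGF2BP2 was the 1 gene of the list with a 2-fold change. The demethylase FTO and the reader YTHDF3 both fell in shHMGA2-2 (-0.48 each) and did not pass in shHMGA2-1 (-0.22 and -0.20), where YTHDF3 passed without shHMGA2-1 replicate 2 (adjusted p = 0.0034). Without either shNC library 1 gene of the list was called in shHMGA2-1.

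Of 10 transcripts known to be bound by IGF2BP proteins, 8 were tested. In shHMGA2-1 3 rose and 3 fell (median -0.027), and in shHMGA2-2 4 rose and 4 fell (median -0.13). ACTB, β-actin, whose mRNA IGF2BP1 localizes, fell in both lines (-0.28 and -0.63), as did SRF, the serum response factor (-0.64 and -0.65), and FSCN1, the actin bundling protein fascin (-0.32 and -1.16). For FSCN1 the call in shHMGA2-1 did not pass without shNC replicate 1 (adjusted p = 0.10), shNC replicate 2 (0.14) or shHMGA2-1 replicate 2 (0.15). IGF2, CD44 and BTRC rose in both lines. BTRC had 615 and 560 counts in shNC, against 897 and 976 in shHMGA2-1 and 707 and 783 in shHMGA2-2. MYC was at -0.02 and did not pass in shHMGA2-1, and it rose by 0.26 in shHMGA2-2. In bulk libraries fewer cells expressing a gene and less of its RNA per cell cannot be told apart, for these genes and for those of the axis.

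The genes whose pattern over the 6 libraries was most like that of IGF2BP2 were GLTP, METTL9 and a gene without a symbol, ENSG00000282057. Likeness was the root mean square difference of log2 CPM, each gene centred on its own mean, and it was 0.0447, 0.0448 and 0.0495. GLTP, a glycolipid transfer protein, had 2312 and 2399 counts in shNC, against 1892 and 1877 in shHMGA2-1 and 1033 and 1011 in shHMGA2-2. METTL9, a histidine methyltransferase, had 2059 and 2135, 1487 and 1502, and 820 and 887 counts. The 6 libraries fall into 3 lines, so any gene with the same steps between lines ranks high in this measure.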

How the data were processed

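The authors deposited 1 table with a whole-number count and an FPKM value (fragments scaled to exon length and library total) per gene and library. The submitters' processing notes name HISAT2 2.2.1, HTSeq 0.6.1 and GRCh38.p13, with no strand setting. FPKM values followed from the counts, the exonic size and the library total for 100% of values within 0.006. Unused sample columns numbered 0. Sample titles gave the line and the replicate number. Replicates differed by more than sampling noise (chi-square per degree of freedom 2.03, 6.21 and 2.91).

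Counts were tested in R 4.3.3 with edgeR 4.0.16: TMM scaling, filterByExpr, the quasi-likelihood test in a model with 3 lines and in one with the knockdown lines pooled, and Benjamini-Hochberg adjustment over 16110 genes. Standard errors and 95% confidence intervals came from the same fit. Where a line had at most 3 counts in each library, folds are bounds against 3 counts per library. They cover counting error in that line only and take the mean of the other line as counted. Alternatives were DESeq2 1.42.0, other scalings and filters, limma 3.58.1 on log2(FPKM + 1) and log2(FPKM + 0.1), each library left out and the replicate number as a block.

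The genes and lists were chosen with earlier results of these data known. One gene of the signal transduction list is not reported here and was left out of its counts. Named genes were the 10 axis genes, HMGA2, the 4 genes with the largest called change in each list, the IGFBP genes, IRS1, IRS2 and the 3 genes most like IGF2BP2. Others (such as the markers of cell identity and stroma, STC1, PEG10, MYC, MIRLET7BHG and neighbors of IGF2) were named after their values were seen, as were the principal transcripts used for 3′ UTRs, since the longest 3′ UTRs had been looked at first.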

Additional observations from a re-analysis of the deposited data

Results flagged for a closer look

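The results below differed between shHMGA2-2 and shHMGA2-1 in the direct comparison of these lines (edgeR, adjusted p under 0.05), in which 50.2% of all genes passed. Values are log2 fold changes of shHMGA2-2 over shHMGA2-1. Among the axis genes they were -0.87 for IGF2BP2, -0.55 for IGF2BP3, 2.69 for IGF2, -0.58 for IGF1R, 0.32 for IGF2R and 0.51 for INSR. HMGA2 itself differed by -1.01, so the knockdown was deeper in shHMGA2-2. Its paralog HMGA1 differed by -0.90, and the cause of that was not tested.

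Among the binding proteins and their protease the differences were -1.30 for IGFBP1, -2.25 for IGFBP3, -0.90 for IGFBP4, 1.84 for IGFBP6, -2.14 for IGFBP7 and -4.87 for PAPPA2. Among the signalling genes they were -0.88 for IRS1, 1.54 for IRS2, -2.10 for GRB14 and -0.79 for PIK3CA. IGFBP3, IRS2 and THBS1 (3.10) passed against shNC in opposite directions in the 2 lines. PAPPA2 and IGF1R did so in the main fit and in some of the alternatives. The PAPPA2 rise in shHMGA2-1 and the IGF1R fall in shHMGA2-2 were lost with DESeq2 and without shNC replicate 2. The PAPPA2 rise was also lost without shHMGA2-1 replicate 1, and the IGF1R fall without shNC replicate 1 or either shHMGA2-2 library. Upper quartile scaling, limma, the replicate block and a filter on a mean FPKM of at least 1 ended the IGF1R fall too.

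The other genes were MIR99AHG (-3.67), MIR100HG (0.25), AGO4 (0.33), TUT4 (0.78), CDKN1C (0.97), FTO (-0.26), YTHDF3 (-0.28), FSCN1 (-0.84) and ACTB (-0.35). For CCND2 (7.41), MEST (6.49) and AFP (-6.58) 1 of the lines was at or under 3 counts in each library, so these fitted values depend on the prior count and are not bounds. With 2 libraries in each line, no line could be checked for a library far from the others.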

How the results depend on the processing

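Over 444 alternative results for the axis genes, 404 kept their direction and their side of an adjusted p of 0.05, 28 lost the call, 3 gained it and 9 reversed. For the number of axis genes called, limma on log2(FPKM + 1) gave 4 in place of 7 in shHMGA2-1. With the knockdown lines pooled, the 1 call became 3 with DESeq2, 0 with limma on log2(FPKM + 1), 0 with the replicate block and 0 to 1 when a library was left out (0 without either library of shNC or of shHMGA2-2). Small differences reversed. PLAGL2 in shHMGA2-2 against shNC became 0.044 with upper quartile scaling, 0.040 and 0.043 with limma, and lay between -0.20 and 0.042 when a library was left out (0.042 without shHMGA2-2 replicate 2). Against shHMGA2-1 it lay between -0.025 (without shHMGA2-2 replicate 1) and 0.22. IGF2R in shHMGA2-2 against shNC became -0.0088 with DESeq2, -0.018 without a filter, -0.0071 without shNC replicate 1 and -0.048 without shHMGA2-2 replicate 1 (highest 0.054). In shHMGA2-1, TUT4 became -0.044 and -0.081 without shNC replicate 1 or shHMGA2-1 replicate 2 (highest 0.14), and MEST, at 3 counts or fewer there, lay between -2.36 and 3.69. Over all genes, the pooled comparison called 848 with edgeR, 1982 with DESeq2, 152 with the replicate block and 4 to 822 with a library left out. shHMGA2-1 called 5388, and 3432 or 3283 without 1 shNC library. Upper quartile scaling moved the median of all genes in shHMGA2-2 by 0.11 (log2) and the share of calls that were higher from 50.3% to 59.9% (47.2% to 58.8% in shHMGA2-1). Same-numbered replicates did not deviate together over all genes (correlations -0.024, 0.0036 and -0.18). With 2 libraries in each line, this cannot exclude a pairing that affects some genes. Beside the pooled INSR call, the block ended that of IGF1R in shHMGA2-2 (adjusted p = 0.085). The causes were not tested.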
